A study of Mus musculus with 28 samples.

Results

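The clustered protocadherin genes are 58 neighbouring genes on mouse chromosome 18, in an alpha, a beta and a gamma cluster, and they were followed here as 1 stretch of chromatin, chr18:37080001-38000000 of the mm9 build. The stretch was defined by position, without a measured value in its bounds, although its genes were chosen with earlier results of these data known. It spans 920 kb, or 4600 of the 13274547 bins of 200 bp into which the genome was divided (0.0347%). ChIP-seq, the sequencing of DNA bound by an antibody's target, was done in mouse embryonic fibroblasts (MEFs), primary connective tissue cells, of strain 129s2, grown from embryos of day 14.5 and used at passages 3 to 4. The cells came from wild type (WT) or SirT7-/- (KO) embryos, the latter lacking the gene of SIRT7, a nuclear NAD-dependent deacylase, and each genotype was labelled NT or GS, abbreviations that the labels do not expand in a series whose title concerns glucose starvation. The 28 libraries were 8 for H3K27me3, the histone mark written by Polycomb repressive complex 2, 8 for mH2A1 (precipitated with an antibody against the histone variant macroH2A1.1), 4 for SIRT7 in WT cells only, and 8 inputs.

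Clustered protocadherins are cadherin-like adhesion proteins of the cell surface, best known from neurons. In the alpha and gamma clusters a row of variable exons, each with its own promoter, precedes constant exons to which the chosen variable exon is spliced, so that every alpha or gamma isoform pairs its own extracellular part with a shared cytoplasmic part. Beta genes have no such shared exons. Each neuron uses a small and largely random set of these promoters, apart from the C-type genes, which are used more broadly, and the resulting combination lets neurons tell their own branches from those of others. MEFs are not neurons, and no expression was measured here.

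All 58 listed symbols were found in RefSeq's gene table, 57 of them as protein-coding genes and Pcdhgb8 as a transcribed pseudogene. The alpha cluster comes before the others in that table's order, with Pcdha1 to Pcdha12 followed by the C-type genes Pcdhac1 and Pcdhac2 (14 genes). The beta cluster of 22 genes, Pcdhb1 to Pcdhb22, follows, and after Slc25a2, a mitochondrial carrier, and Taf7, a subunit of the general transcription factor TFIID, comes the gamma cluster. It holds 12 gamma A genes, 7 gamma B genes and the C-type genes Pcdhgc3, Pcdhgc4 and Pcdhgc5 (22 genes). Between Pcdha1 and Pcdhgc5 the order holds 12 genes that are not members, and Diaph1, a formin that nucleates actin filaments, comes after Pcdhgc5. The table belongs to another build (GRCm38.p6) than the files, so its coordinates were not used, and positions below are given along the mm9 stretch and not per gene.

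The chromatin of each condition was described by 1 deposited segmentation, which the labels tie to its H3K27me3 and mH2A1 libraries, replicates together. The 4 segmentations are called WT-NT and WT-GS, KO-NT and KO-GS. Each puts every bin in 1 of 4 states, U1 to U4, whose meaning is not given by the sources used here, nor whether it is the same in all segmentations. U1 includes sequence without signal, since all 15000 bins of the unassembled initial 3 Mb of chromosome 18 were U1 in each segmentation. U2, U3 and U4 together are called marked sequence below. Each segmentation gives 1 result for its replicates together, and the depth behind it is unknown. So no value has a replicate error, no difference could be tested, and whether a difference exceeds the spread between cultures cannot be told. The segmentations hold no measure of the deleted gene or of fibroblast markers, against which the labels could be checked.

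The protocadherin stretch was almost wholly U1 in every segmentation. U1 held 4383 of the 4600 bins in WT-NT (95.3%) and 4242 in WT-GS (92.2%). In the KO segmentations it held 4361 bins under NT (94.8%) and 4333 under GS (94.2%). Marked sequence came to 43.4 kb in WT-NT, 71.6 kb in WT-GS, 47.8 kb in KO-NT and 53.4 kb in KO-GS. These are 4.72%, 7.78%, 5.2% and 5.8% of the stretch in that order, against 29.5%, 29.9%, 26.5% and 27.3% of the genome. WT-GS had the most marked sequence and WT-NT the least, with both KO segmentations between them.

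The sequence on either side was far more often marked. In the 920 kb before the clusters 41.1% of bins were marked in WT-NT and 42.2% in WT-GS, while the KO values were 37.4% under NT and 43.7% under GS. In the 920 kb after the clusters the shares were 61.7% and 54.9% in WT and 56.3% and 54.5% in KO, for NT and GS. The marked blocks did not reach the clusters: the last marked bin before the stretch ended 108.4 to 108.6 kb from its start, and the next one after it began 130.6 to 131.6 kb past its end. So little marked sequence is not rare for a stretch of this length. Among 2794 tiles of 920 kb over the autosomes and X, 604 had a lower marked share than the clusters in WT-NT (21.6%) and 674 in WT-GS (24.1%). The same held for 632 tiles in KO-NT (22.6%) and 694 tiles in KO-GS (24.8%). The tile medians of the segmentations were, in the same order, 29.4%, 29.6%, 24.8% and 25.8%.

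**Figure D1:**
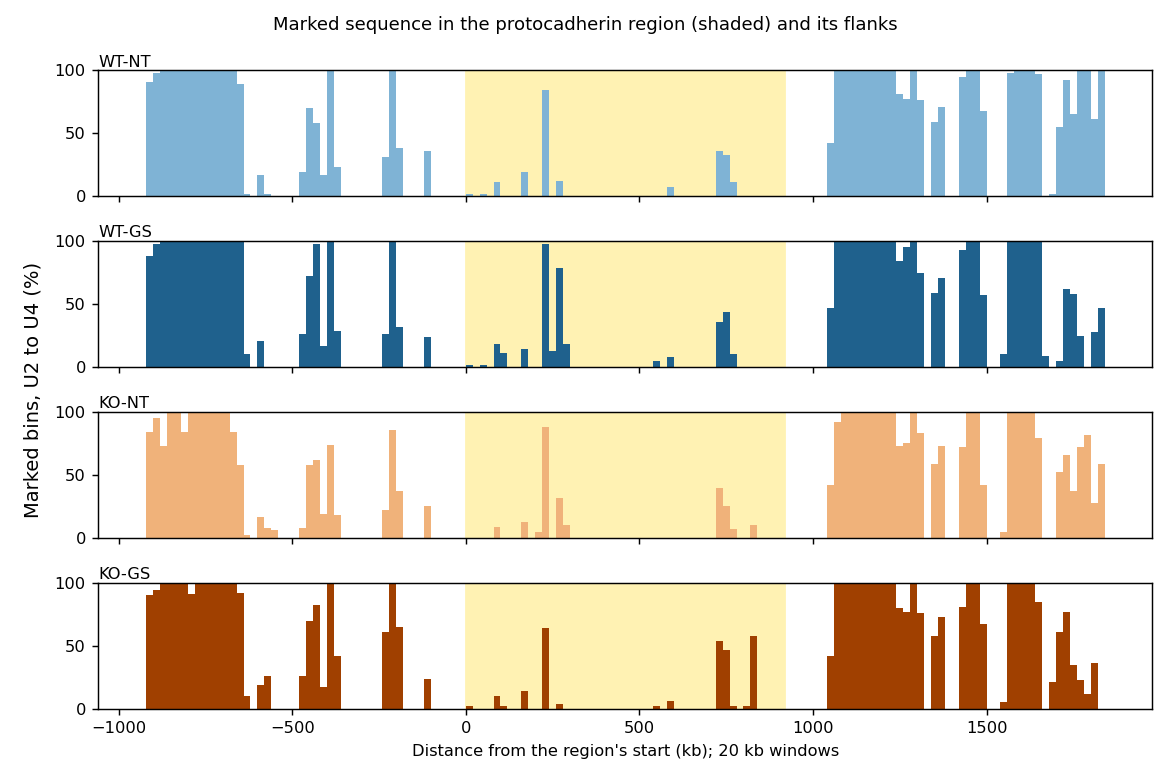
Share of bins in a marked state (U2 to U4, in %) in windows of 20 kb, against the distance from the start of the protocadherin stretch in kb, for the 4 segmentations. The shaded 920 kb are the protocadherin clusters, where most windows hold no marked bin. The highest window there has 64% (KO-GS) to 98% (WT-GS) of its bins marked, and blocks near 100% lie on both sides.

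The little that was marked was mostly U3, unlike the genome, where U2 is the commonest marked state. U3 took 75.1% of the marked bins of the stretch in WT-NT and 52.8% in WT-GS, then 66.9% in KO-NT and 84.3% in KO-GS, against 26.7%, 28.2%, 34% and 31.1% of the marked bins of the genome. U2 took 22.1%, 44.7%, 31.8% and 13.9%, against 66.4%, 66.4%, 62% and 62.1%. U4 was rare, with 6, 9, 3 and 5 bins. In bins, U3 ranged from 160 in KO-NT to 225 in KO-GS, and U2 from 37 in KO-GS to 160 in WT-GS, so U2 varied more between conditions than U3.

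Marked sequence in the clusters also recurred less between conditions than in the genome. Of 476 bins marked in any segmentation, 150 (31.5%) were marked in all 4 and 216 (45.4%) in 1 alone, against 59.9% and 14.1% in the genome. Another 65 bins were marked in 2 segmentations and 45 in 3. Because U1 was so common, 4253 bins (92.5%) nevertheless had the same state in all 4, against 81.4% of the genome. Of these, 4124 were U1, which is 89.7% of the stretch and 64.6% of the genome.

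Stretches unmarked in all 4 segmentations were long. The longest inside the clusters ran over 254.2 kb (chr18:37375001-37629200), in the middle of the stretch, and 1041 of the genome's 39061 such stretches are longer. Another, chr18:37676001-37805400, ran over 129.4 kb. Those at the edges, chr18:36971601-37099000 (127.4 kb) and chr18:37917801-38130600 (212.8 kb), continue outside the stretch. In single segmentations the longest U1 segments were longer still: 328.8 kb in WT-NT (chr18:37345801-37674600), 430.4 kb in KO-NT (chr18:37375001-37805400), 284 kb in KO-GS (chr18:37345401-37629400) and 285.2 kb in WT-GS (chr18:37845401-38130600, continuing outside). The median U1 segment of the stretch measured 37300 bp in WT-NT, 21100 bp in WT-GS, 47200 bp in KO-NT and 30800 bp in KO-GS, against 10200 to 11000 bp in the genome. Of 46 windows of 20 kb, 36 held no marked bin in WT-NT and 32 in WT-GS, as did 36 windows in KO-NT and 33 windows in KO-GS. A total of 29 held none in any segmentation.

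The marked bins fell into 19 islands, obtained by joining bins marked in any segmentation over gaps of up to 2 kb and numbered here along the chromosome. This grouping was chosen after the values had been seen. Islands spanned 0.4 to 23.6 kb (median 2.4 kb), with gaps of 2.2 to 254.2 kb between them (median 20.7 kb). There were 7 islands marked in all 4 segmentations, 2 in 3, 4 in 2 and 6 in 1 alone. Under NT, WT had 10 marked islands and KO 9, and under GS, WT had 14 and KO 15. The 7 islands marked in all 4 held most marked bins in every segmentation, 94.9% in WT-NT and 89.1% in WT-GS, then 91.6% in KO-NT and 72.7% in KO-GS.

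**Figure D2:**
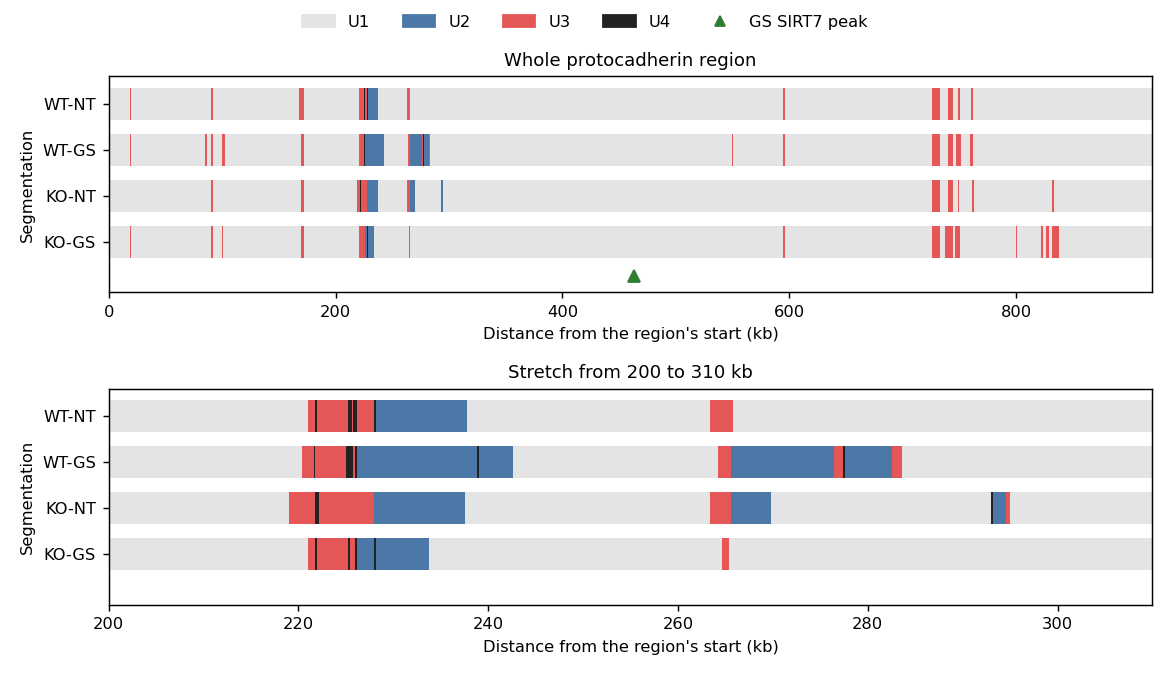
State of every 200 bp bin in the 4 segmentations against the distance in kb from the start of the protocadherin stretch, over all 920 kb (top) and enlarged from 200 to 310 kb (bottom). Grey is U1, blue U2, red U3 and black U4, and the triangle is the GS SIRT7 peak; the enlarged panel shows U2 over most of island 8 in WT-GS, where the other 3 segmentations are mostly U1.

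U2 occurred only in islands 7 to 9, between chr18:37306201 and chr18:37374600, and the other 16 islands were U3 apart from 1 U4 bin of island 12 in WT-GS and 1 in KO-GS. Island 7 (chr18:37299001-37322600) was the largest and held the most marked window of the clusters in each segmentation, chr18:37300001-37320000, with 84% of its bins marked in WT-NT and 98% in WT-GS, then 88% in KO-NT and 64% in KO-GS. Island 7 had 16.8 kb of marked sequence in WT-NT, 22.2 kb in WT-GS, 18.6 kb in KO-NT and 12.8 kb in KO-GS. In all 4 it began with U3, with U4 bins within it or at its end, and went on with U2, which in WT-GS and KO-GS was interrupted by 1 U4 bin. The U2 of this island gave the longest U2 segment in each segmentation, 9.6 kb in WT-NT (chr18:37308201-37317800), 12.6 kb in WT-GS (chr18:37306201-37318800), 9.6 kb in KO-NT (chr18:37308001-37317600) and 5.6 kb in KO-GS (chr18:37308201-37313800). These segments began within 2 kb of one another and ended up to 5 kb apart. The longest U4 segments of WT-NT, WT-GS and KO-NT, 0.4 to 0.8 kb, also lay in island 7, and in KO-GS every U4 segment was a lone bin.

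Island 8 (chr18:37343401-37363600) varied most. It had 2.4 kb of marked sequence in WT-NT, all U3, and 19.4 kb in WT-GS, of which 79 bins were U2, 17 U3 and 1 U4. In KO-NT it had 6.4 kb, with 21 U2 and 11 U3 bins, and in KO-GS 0.8 kb, all U3. Island 9 (chr18:37373001-37375000), the next island, was marked in KO-NT alone, with 7 U2, 2 U3 and 1 U4 bins.

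Towards the end of the stretch, islands 12 to 14 were U3 in every segmentation. Island 12 (chr18:37805401-37813000) was the steadiest of the larger islands, with 7.2 kb marked in both WT segmentations and 7.6 kb in both KO segmentations, and it ended at the same base in all 4. It held the longest U3 segment of WT-NT, 7.2 kb (chr18:37805801-37813000), and of KO-NT, 7.6 kb. Island 13 (chr18:37816801-37831200) was less even, with 6.6 kb in WT-NT, 8.4 kb in WT-GS, 5.4 kb in KO-NT and 12.4 kb in KO-GS. It held the longest U3 segment of WT-GS, 4.4 kb (chr18:37826801-37831200), and of KO-GS, 7.6 kb (chr18:37816801-37824400). Island 14 (chr18:37839601-37842600) had 2.2 kb in WT-NT, 2 kb in WT-GS, 1.4 kb in KO-NT and 0.6 kb in KO-GS.

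Near the start of the stretch, islands 4 (chr18:37170201-37172400) and 6 (chr18:37248201-37252000) were U3 in all 4 segmentations. Island 4 had 2.2 kb in WT-NT and 1.8 kb in each of the other 3, and island 6 had 3.8 kb in WT-NT, 2.8 kb in WT-GS, 2.6 kb in KO-NT and 2.8 kb in KO-GS. Islands 1 (chr18:37099001-37099400), 2 (chr18:37120001-37120400) and 11 (chr18:37674401-37676000) were marked in both WT segmentations and not in KO-NT, and islands 1 and 11 were marked in KO-GS too. Islands 3 (chr18:37164801-37166600, 1.8 kb) and 15 (chr18:37845001-37845400, 0.4 kb) were marked in WT-GS alone. Islands 5 (chr18:37179801-37182200) and 10 (chr18:37629201-37630200) were marked in both GS segmentations and in neither NT segmentation, with 2.2 kb and 1 kb in WT-GS and 0.6 kb and 0.4 kb in KO-GS. The KO-GS marks of both were lost with bins of 1 kb and with segments under 1 kb joined to a neighbour. Under either setting islands 1, 2 and 15 lost all their marks.

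Islands 16 to 19, the last of the stretch, were marked only in KO. In KO-GS they had 0.4 kb (chr18:37880001-37880400), 2.4 kb (chr18:37901401-37903800), 2.6 kb (chr18:37906401-37909000) and 6.6 kb (chr18:37911201-37917800), all U3. In KO-NT only island 19 was marked, with 2 kb. In both WT segmentations all 4 of these islands were U1 throughout, and the last marked bin of the stretch ended at chr18:37842200 in WT-NT and chr18:37845400 in WT-GS.

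**Figure D3:**
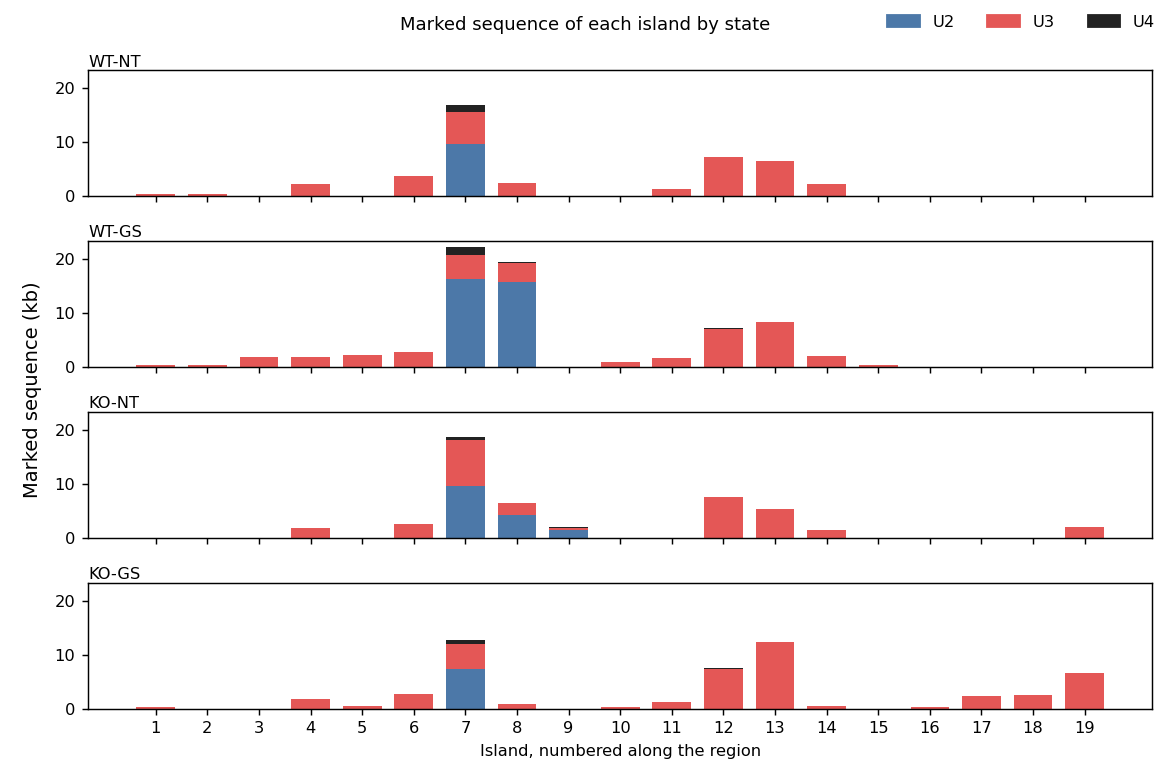
Marked sequence in kb in each of the 19 islands, numbered along the stretch, for the 4 segmentations, with bars stacked by state (U2 blue, U3 red, U4 black). Island 8 is highest in WT-GS at 19.4 kb, and islands 16 to 19 have bars only in the KO segmentations.

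Treatment was compared within each genotype. In WT cells, GS went with more U2, from 48 bins in NT to 160 in GS, and no U2 bin of WT-NT became U1. Of the 4600 bins, 188 had another state in GS than in NT (4.09%, against 9.54% of the genome). Of 4383 U1 bins 156 became marked (3.56%, against 4.98%), and of 217 marked bins 15 became U1 (6.91%, against 10.5%). Each of these shares was below that of the genome. The share over all bins also reflects how much was U1, 95.3% of the stretch and 70.5% of the genome in WT-NT. Split by state, the gain of U3 was above the genome's, with 53 of 4383 U1 bins against 72130 of 9358882. The gain of U2 was below it, with 101 against 390546 of the same U1 bins. All 15 lost bins were U3, and the loss of U3 was above the genome's, with 15 of 163 bins against 80333 of 1046088. The loss of U2 was below it, with 0 of 48 bins against 326592 of 2601115.

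By state, 101 of the WT bins went from U1 to U2, 53 from U1 to U3, 15 from U3 to U1 and 10 from U3 to U2. The U2 share of the stretch was 2.43 percentage points higher in GS than in NT (1.04% and 3.48%), against a difference of 0.25 points in the genome. U3 was 0.565 points higher (3.54% and 4.11%), against 0.54 points. The U2 difference was 1.91 points in the 920 kb before the clusters, -9.96 in the 920 kb after and -0.252 on chromosome 18. The changes were concentrated: of 21 runs of neighbouring changed bins, the 3 longest held 66.5% of them. The longest, 18 kb in island 8 (chr18:37345601-37363600), had 78 of its 90 bins go from U1 to U2. The next, 4.8 kb at the end of island 7 (chr18:37317801-37322600), had 23 bins go from U1 to U2, and 2.2 kb in island 5 (chr18:37180001-37182200) went from U1 to U3.

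By window, the largest U2 gain in WT was at chr18:37340001-37360000, from 0% in NT to 66% in GS, and no window lost U2. U3 gained most at chr18:37180001-37200000, from 0% to 11%, and lost most at chr18:37300001-37320000, from 30% to 23%. Nearly all marked sequence of WT-NT was kept, since 202 bins were marked under both treatments, 93.1% of those marked in NT and 56.4% of those marked in GS. In the genome those shares were 89.5% and 88.2%, so the GS share was lower in the clusters.

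In KO cells, GS went with less U2, from 76 bins in NT to 37 in GS, and with more U3, from 160 to 225. Here 190 bins changed state (4.13%, against 11.2% of the genome). Of 4361 U1 bins 102 became marked, all of them U3 (2.34%, against 6.2%), and of 239 marked bins 74 became U1 (31%, against 14.2%). The loss of marked bins was thus above the genome's share, and the gain of any marked state below it. In the genome most of that gain was U2: of 9751140 U1 bins 434739 became U2 and 157346 became U3. The share of U1 bins that became U3 was therefore higher in the stretch than in the genome. By state, 47 bins went from U2 to U1, 26 from U3 to U1 and 9 from U3 to U2, and none from U1 to U2.

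The U2 share of the KO clusters differed by -0.848 points between GS and NT (0.804% and 1.65%), where that of the genome differed by 0.516 points. The U3 share differed by 1.41 points (4.89% and 3.48%), where that of the genome differed by -0.541 points. Both differences had the opposite sign to the genome's, but neither sign was particular to the clusters. U2 differed by -4.24 points in the 920 kb after them, 6.48 in the 920 kb before and 0.506 on chromosome 18. U3 differed by 0.242 points on chromosome 18, -2.22 in the 920 kb before the clusters and -1 in those after. The longest runs were 4.6 kb from U1 to U3 in island 19 (chr18:37913201-37917800), 4.4 kb in island 8 (chr18:37345401-37349800), with 21 bins going from U2 to U1, and 3.8 kb from U2 to U1 in island 7 (chr18:37313801-37317600). These 3 held 33.7% of the changed bins, over 24 runs, so changes were less concentrated than in WT.

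By window, the KO clusters lost U2 most at chr18:37340001-37360000, from 21% in NT to 0% in GS, and no window gained U2. U3 gained most at chr18:37900001-37920000, from 10% to 58%, and lost most at chr18:37300001-37320000, from 38% to 23%. Of the marked bins of KO-NT 69% were also marked in KO-GS, and of those of KO-GS 61.8% had been marked in KO-NT (165 bins), against 85.8% and 83.3% in the genome.

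Few bins changed with treatment in both genotypes, which are compared here through segmentations they do not share. There were 54 such bins, 28.7% of those changed in WT and 28.4% of those changed in KO, against 41.1% and 35.1% in the genome. Of the 54, 28 made the same change in both genotypes and 25 made opposite changes. In the genome, of 519896 such bins 191648 made the same change and 198411 opposite changes, so opposite changes were common there too. Of the 25, 20 lay in island 8, where bins that were U1 in WT-NT and U2 in WT-GS were U2 in KO-NT and U1 in KO-GS.

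**Figure D4:**
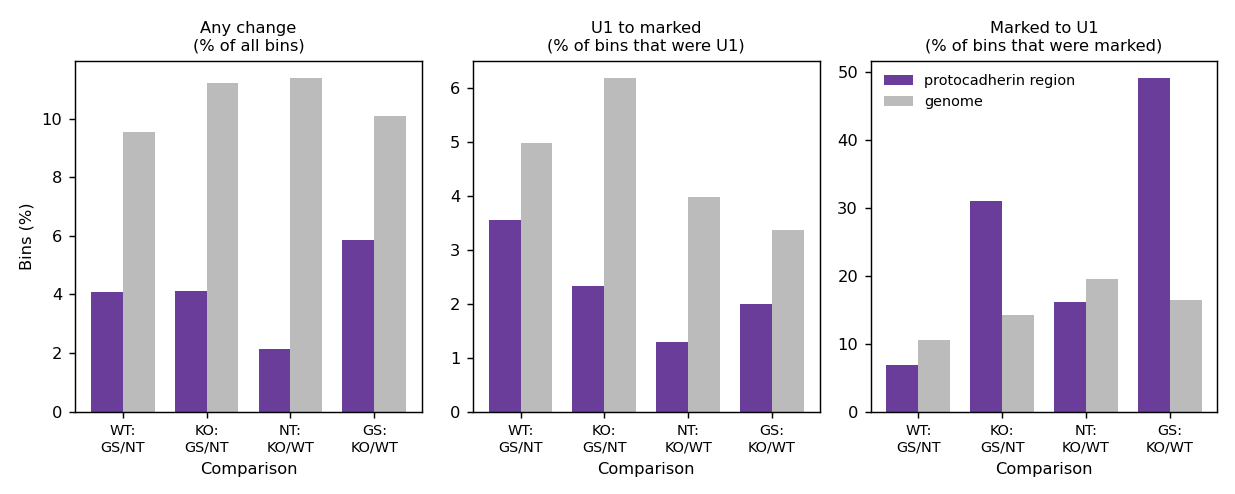
Share of bins (%) that changed state in the protocadherin stretch (purple) and in the genome (grey) for the 4 comparisons, as any change over all bins (left), U1 to marked over bins that were U1 (middle) and marked to U1 over bins that were marked (right). The stretch is below the genome in the left and middle panels, and above it in the right panel for GS with NT in KO (31% and 14.2%) and KO with WT in GS (49.2% and 16.5%).

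Genotype was compared within each treatment, and these comparisons share their segmentations with those of treatment, so they are not independent of them. In NT cells few bins of the clusters differed between genotypes, and 4326 of the 4600 bins were U1 in both. Bins marked in both numbered 182, or 83.9% of those marked in WT-NT and 76.2% of those marked in KO-NT. In the genome these shares were 80.5% and 89.4%. KO-NT had another state than WT-NT in 99 bins (2.15%, against 11.4% of the genome), the lowest share of the 4 comparisons. Of 4383 U1 bins of WT-NT 57 were marked in KO-NT (1.3%, against 3.98%), and of 217 marked bins 35 were U1 (16.1%, against 19.5%). Split by state, U3 bins of WT-NT were U1 in KO-NT more often than in the genome (34 of 163, against 157072 of 1046088). For U2 bins this was less often than in the genome (1 of 48, against 594403 of 2601115).

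The NT difference in U2 was 0.609 points in the clusters (1.04% in WT, 1.65% in KO), where the genome differed by -3.15 points. U3 differed by -0.0652 points (3.54% and 3.48%), a sign that turned with the bin size, against 1.16 points in the genome. The longest runs were 4.2 kb in island 8 (chr18:37345601-37349800), with 20 bins U1 in WT and U2 in KO, 2 kb that was U1 in WT and U3 in KO at the start of island 7 (chr18:37299001-37301000) and the 2 kb of island 9. They held 41.4% of the changed bins, over 22 runs. By window, U2 was higher in KO by most at chr18:37340001-37360000 (0% and 21%) and lower in none. U3 was higher by most at chr18:37900001-37920000 (0% and 10%) and lower by most at chr18:37820001-37840000 (33% and 25%).

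In GS cells the genotypes differed more, mainly through U2, with 160 bins in WT-GS and 37 in KO-GS. A different state was seen in 269 bins (5.85%, against 10.1% of the genome). Of 358 marked bins of WT-GS 176 were U1 in KO-GS (49.2%, against 16.5%), the share furthest above the genome's in the 4 comparisons. Of 4242 U1 bins 85 were marked in KO-GS, all of them U3 (2%, against 3.38% for any marked state in the genome). Of the genome's 9304885 U1 bins 213477 were U2 in KO-GS and 93357 were U3. The share that was U3 was therefore higher in the stretch. By state, 122 bins were U2 in WT and U1 in KO, 52 were U3 in WT and U1 in KO, and none was U1 in WT and U2 in KO.

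The GS difference in U2, -2.67 points (3.48% in WT, 0.804% in KO), was close in size to that of the genome, -2.88 points, although U2 was rare in the clusters. U3 differed by 0.783 points (4.11% and 4.89%), or by 0.37 points once segments under 1 kb were joined to a neighbour, against 0.0761 points in the genome. All marked states together differed by -1.98 points, against -2.57 points. The longest runs were the 18.2 kb of island 8 (chr18:37345401-37363600), with 79 bins U2 in WT and U1 in KO, 8.8 kb in island 7 (chr18:37313801-37322600), with 43 such bins, and the 6.6 kb of island 19, U1 in WT and U3 in KO. They held 62.5% of the changed bins, over 29 runs. By window, U2 was lower in KO by most at chr18:37340001-37360000 (66% and 0%) and higher in none. U3 was higher by most at chr18:37900001-37920000 (0% and 58%) and lower by most at chr18:37180001-37200000 (11% and 2%).

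Across the 4 segmentations together, 101 bins of the clusters were U3 in all (2.2%, against 4.89% of the genome) and 28 were U2 in all (0.609%, against 11.4%). The commonest changing pattern was U2 in WT-GS and U1 in the other 3, with 81 bins (16.2 kb, 1.76% of the stretch), against 1.38% of the genome. U3 in KO-GS and U1 in the other 3 came next, with 70 bins (14 kb, 1.52%), against 0.217% of the genome. U3 in WT-GS alone had 37 bins (0.804%, against 0.23%). Patterns were ranked after their counts had been seen.

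SIRT7, mapped in WT cells only, had almost no listed peaks in the clusters. The NT list, with 90 peaks in all, had 0 on chromosome 18. The GS list had 2671 peaks, 86 on chromosome 18 and 1 in the clusters. That is 1.09 peaks per Mb in the clusters, 0.947 on chromosome 18 and 1.01 in the genome, so 1 peak is close to what the mean density of the GS list puts in a stretch of this length.

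The GS peak lay at chr18:37542892-37543810 and was 919 bp long, against a list median of 1227 bp. Its score, the authors' value for the peak, was 547, near the low end of a list that ran from 537 to 1000 (median 629), and 167 of the 2671 peaks scored lower. The peak was U1 in all 4 segmentations, inside the 254.2 kb that were never marked. In WT-GS, the condition of the list, the nearest marked bins lay 179.3 kb before and 85.39 kb after it. In the other segmentations these distances were 197.1 and 130.8 kb (WT-NT), 167.9 and 261.6 kb (KO-NT), and 197.5 and 85.59 kb (KO-GS). This 1 listed peak of the stretch overlapped none of the 19 islands, and 89.7% of the stretch was U1 in all 4 segmentations. The next GS peaks on the chromosome were 2068 kb before (chr18:35473365-35474412) and 3680 kb after (chr18:41223924-41226824), against a median gap of 570 kb between GS peaks of chromosome 18, where 10 of 85 gaps are wider than the smaller of these. There is no SIRT7 list from KO cells here, so a peak that does not depend on SIRT7 cannot be told apart from one that does.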

How the data were processed

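Crosslinking with 1% formaldehyde for 10 min and sonication to 150 to 300 bp are given in the labels' protocols. Tools named without roles in the submitters' processing notes are MACS 1.4.2 and Bowtie, deepTools 2.4.2, SAMtools 0.1.19, Trimmomatic 0.36 and FastQC 0.11.3, and the builds named are mm9 and hg19. How segmentations were made is not stated there or in the labels. The authors deposited 1 segmentation for each combination of genotype and treatment, which the labels tie to 2 H3K27me3 and 2 mH2A1 libraries, and 1 SIRT7 peak list per treatment, each peak with a deposited score whose formula is not given. Depth is unknown.

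Segments were expanded to bins of 200 bp (Python 3.11.15, numpy 2.4.6), with coordinates counted from 1, and the procedure was tested on simulated segments. States were counted in the stretch, in flanks of equal length, on chromosome 18 and in the genome, and compared bin by bin between treatments and between genotypes. A peak belonged to the stretch with an overlap of 1 bp. Since every segmentation and peak list gives 1 result for its replicates together, no test was run. Named along the stretch were the 3 longest changed runs of each comparison, the longest segment of each state, the 20 kb windows of highest marked share and of largest gain and loss of U2 and U3, and each peak. Islands, patterns and tiles were chosen after their values had been seen. The members and lists were chosen with earlier results of these data known. Gene symbols and order came from RefSeq's GRCm38.p6 table, and states per gene were not computed, since its coordinates are of another build. The alternatives were bins of 1 kb, segments under 1 kb joined to a neighbour, bounds 50 kb wider, and peaks at or above their list's median score.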

Additional observations from a re-analysis of the deposited data

Results flagged for a closer look

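The difference in U2 between treatments had opposite signs in the genotypes. U2 was 2.43 percentage points higher in GS than in NT in the protocadherin stretch of WT cells and differed by -0.848 points in KO cells, 3.28 points apart. The U2 bins concerned lay in islands 7 to 9. On chromosome 18 the signs were opposite too, with -0.252 points in WT and 0.506 in KO. In the genome both were positive (0.25 and 0.516). On either side of the clusters the genotypes had the same sign but lay further apart. The differences were 1.91 points in WT and 6.48 in KO in the 920 kb before, and -9.96 and -4.24 after. No contrast between genotypes was tested, since each value comes from 1 segmentation for the replicates together.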

How the results depend on the processing

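The U2 differences of all 4 comparisons kept their sign and about their size with bins of 1 kb, with segments under 1 kb joined to a neighbour and with bounds 50 kb wider. The U3 difference between WT-GS and WT-NT, 0.565 percentage points, ranged from 0.51 to 0.674 over them, and the other 3 U3 differences moved more. Between KO-NT and WT-NT the U3 difference of -0.0652 points became 0.217 with bins of 1 kb and 0 with short segments joined. Between KO-GS and KO-NT that of 1.41 points became 1.09 and 1.04, and between KO-GS and WT-GS that of 0.783 points became 0.37 with short segments joined. With wider bounds the marked share of WT-GS was 7.02% instead of 7.78%. Of 19 islands, 15 were marked under either coarser setting, and 5 instead of 7 in all 4 segmentations, since islands 8 and 14 lost their marked bins in KO-GS. Islands 5 and 10 lost theirs in KO-GS as well, which left them marked in WT-GS alone. The islands no longer marked in any segmentation were 1, 2, 15 and 16. The GS peak fell below its list's median score, which left 0 peaks in the clusters. States at gene starts were not computed, for lack of an annotation of the files' build. No paired analysis was possible because each segmentation and peak list gives 1 result for its replicates together. For the same reason no replicate could be left out. Unknown depth limits what U1 means: unmarked sequence may hold signal that was not detectable at the depth used.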
